A study of Mus musculus with 6 samples.

Results

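GATA2 and 9 other transcription factors of blood stem and progenitor cells were examined in RNA-seq libraries from cultured mouse cells labelled as female germline stem cells (FGSCs). The 10 genes, taken by name as factors that bind chromatin together with or around GATA2, were Gata1, Gata2, Tal1, Lyl1, Lmo2, Runx1, Fli1, Erg, Spi1 and Gfi1b. All 10 were found among the 55401 genes of the deposited table, and all 10 were among the 10661 genes that reached 1 FPKM on average over the 6 libraries (FPKM, a count of fragments per gene corrected for gene length and for sequencing depth). The control group (3 libraries, treatment given as none) and the metformin group (3 libraries, 1 μM metformin for 24 h) were of strain C57BL/6 in the labels, with no genetic change named. Both groups were kept past passage 20 on STO feeder cells, embryo-derived mouse fibroblasts that had been mitotically inactivated, in medium with serum, LIF, EGF, bFGF and GDNF. The study describes 1 FGSC line, and no source says that the libraries of a group came from separate cultures, so the p-values below measure the spread between these libraries, which may be technical. The study chose Gata2 partly for its expression in RNA-seq under metformin, so its direction in these libraries is not independent evidence, and the comparison here asks where Gata2 and the factors around it stood with and without the drug.

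These factors form a network in which several proteins occupy the same enhancers. GATA2, a zinc finger protein that binds GATA motifs, sustains blood stem cells, early progenitors and mast cells, and GATA1 takes over many of its sites in red cell, megakaryocyte and mast cell differentiation. TAL1 and LYL1 are basic helix-loop-helix proteins that bind E-boxes with an E protein partner and are joined to GATA factors through the bridging protein LMO2 and its partner LDB1. RUNX1 binds DNA with CBFβ, FLI1 and ERG are ETS factors, PU.1 (encoded by Spi1) is an ETS factor of myeloid and lymphoid cells that opposes GATA factors, and GFI1B is a repressor that recruits KDM1A.

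The start sites of the factors are shown here because the levels and differences reported below are those of whole genes, some of which have several starts. RefSeq (GRCm38.p6) gave 12 start sites for 7 of the 10 genes, and Lmo2, Fli1 and Spi1 had no entry. The 250 bases before each start were searched on both strands for a GATA motif (AGATAA or AGATAG, and likewise TGATAA or TGATAG), an E-box (CANNTG), an ETS motif (AGGAAG) and a RUNX motif (TGNGGT), and matches are in capitals. Distances run from the first base of the match to the start site. Gata2 and Lyl1 are printed because their groups of libraries did not overlap, and 1 window each of Tal1 and Gfi1b as examples of the 3 windows with a GATA motif.
Gata2, first start, chr6:88193641-88193890, plus strand: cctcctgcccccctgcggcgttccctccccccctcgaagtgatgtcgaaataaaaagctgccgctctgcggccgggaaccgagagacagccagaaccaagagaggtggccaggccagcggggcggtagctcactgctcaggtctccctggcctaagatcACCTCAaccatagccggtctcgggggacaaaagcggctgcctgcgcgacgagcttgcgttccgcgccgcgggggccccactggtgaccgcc
Gata2, second start, chr6:88198414-88198663, plus strand: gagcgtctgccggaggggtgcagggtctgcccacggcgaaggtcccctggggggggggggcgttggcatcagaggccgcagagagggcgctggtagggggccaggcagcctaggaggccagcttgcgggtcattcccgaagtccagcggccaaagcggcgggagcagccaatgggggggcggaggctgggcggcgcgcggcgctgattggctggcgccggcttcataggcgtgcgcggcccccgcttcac
Lyl1, chr8:84701207-84701456, plus strand: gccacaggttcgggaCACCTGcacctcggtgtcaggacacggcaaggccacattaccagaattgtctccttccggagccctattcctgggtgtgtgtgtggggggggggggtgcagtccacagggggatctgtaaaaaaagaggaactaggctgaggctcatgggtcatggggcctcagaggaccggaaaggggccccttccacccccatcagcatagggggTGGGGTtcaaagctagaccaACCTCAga
Tal1, first start, chr4:115056176-115056425, plus strand: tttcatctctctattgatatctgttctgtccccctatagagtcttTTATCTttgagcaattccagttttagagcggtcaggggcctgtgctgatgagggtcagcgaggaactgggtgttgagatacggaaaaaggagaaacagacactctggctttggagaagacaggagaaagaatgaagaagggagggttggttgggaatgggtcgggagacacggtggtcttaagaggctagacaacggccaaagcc
Gfi1b, chr2:28621983-28622232, minus strand: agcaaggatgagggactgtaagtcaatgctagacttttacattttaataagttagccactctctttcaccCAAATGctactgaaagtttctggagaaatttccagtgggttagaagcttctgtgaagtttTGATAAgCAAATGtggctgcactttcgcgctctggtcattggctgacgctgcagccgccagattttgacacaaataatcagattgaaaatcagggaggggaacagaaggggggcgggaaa

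Neither Gata2 window held a GATA motif, an E-box or an ETS motif, and the first held 1 RUNX motif 91 bases before the start. The Lyl1 window held RUNX motifs 28 and 8 bases and an E-box 235 bases before the start. The Tal1 window held a GATA motif 205 bases before the start, and the Gfi1b window held a GATA motif at 120 bases followed closely by an E-box at 113 bases. Of the 12 windows, 3 held a GATA motif (1 each of Tal1, Erg and Gfi1b), 5 an E-box, 3 an ETS motif and 3 a RUNX motif. Among all 32851 promoter windows of the same length, 26.5% held the GATA motif, 66.2% the E-box, 29.5% the ETS motif and 40.1% the RUNX motif. Such matches describe letters in these windows and are not binding sites.

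The libraries were similar in depth, which was estimated from the steps in the FPKM of short genes at 13400000 to 14040000 fragments, so that 1 fragment on 1 kb of transcript was worth 0.0712 to 0.0746 FPKM. Markers of the labelled cell type were near 0 in these libraries. The study, however, reported Pou5f1, Ddx4, Dppa3, Ifitm3, Dazl and Prdm1 in its cultured FGSCs by RT-PCR. It also reported MVH, the protein of Ddx4, by immunofluorescence. These are other methods, and the reason for the difference was not tested. Of 12 germ cell markers, 7 were listed at 0 in all 6 libraries (Pou5f1, Dppa3, Dazl, Nanos3, Gfra1, Tfap2c and Mael), Ddx4, a germ cell RNA helicase, was at 0 to 0.05 FPKM, and the highest, Zbtb16, had a mean of 1.09 FPKM. All 16 genes of the list for blood cells in general had a mean of at least 10 FPKM, led by Arhgdib at 342, Coro1a at 139, Lcp2 at 131, Lcp1 at 96.0 and Cd53 at 94.9 FPKM. The summed level of that list was 1273 to 1287 FPKM in the control group and 1295 to 1314 FPKM in the metformin group. All 12 fibroblast markers, which the feeder cells would carry, were under 1 FPKM and summed to 0.83 to 1.03 FPKM in the control group and 0.83 to 0.86 FPKM in the metformin group. The germ cell list summed to 2.00 to 2.86 FPKM in the control group and 1.97 to 2.33 FPKM in the metformin group. The 9 markers of T and B cells summed to at most 0.18 FPKM, and of 11 endothelial markers only Egfl7 (6.51 FPKM) exceeded 1 FPKM, with Cdh5, Emcn and Sox17 listed at 0. Of 12 markers of ovarian somatic cells, Cyp11a1, a steroid-producing enzyme, stood at 54.4 FPKM and Star at 1.89 FPKM, and 5 including Foxl2 were listed at 0. The cultures are therefore named below only by their label, and the part that cell composition plays in any difference between the groups was not tested.

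**Figure D1:**
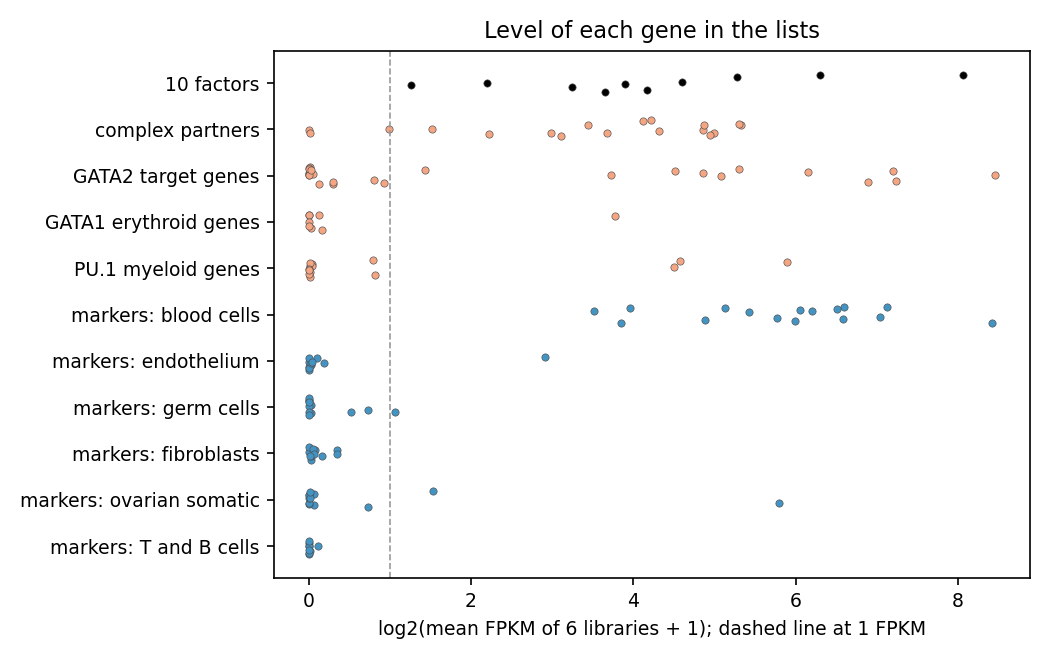
Mean level of each gene over the 6 libraries on the scale of log2(FPKM + 1), by gene list, with 1 point per gene and a dashed line at 1 FPKM. The 10 factors and the 16 blood cell markers lie to the right of the line, whereas all fibroblast and T and B cell markers lie to its left.

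Gata2 was the most abundant of the 10 factors. Its FPKM was 265, 256 and 255 in the control libraries and 273, 273 and 279 in the metformin libraries. With a mean of 267 FPKM over the 6 libraries it ranked 151 among the 10661 genes tested, the 98.6th percentile, and it made up 57.8% of the summed FPKM of the 10 factors. Lyl1 followed at 70.4 to 84.2 FPKM, then Fli1 at 36.7 to 39.0, Spi1 at 22.9 to 23.5 and Tal1 at 15.8 to 17.6 FPKM. Runx1 stood at 13.1 to 14.7 FPKM, Gfi1b at 10.7 to 12.5, Lmo2 at 7.92 to 9.34, Gata1 at 3.24 to 3.98 and Erg at 1.11 to 1.63 FPKM. The order was the same in every library, since the ranges over the 6 libraries overlapped for 0 of the 9 pairs of neighbours in it. The widest step was that from Gata2 down to Lyl1, at 3.43-fold between their means, and the narrowest was that from Runx1 down to Gfi1b, at 1.21-fold. From Gata2 to Erg the levels spanned 191-fold, 7 of the 10 factors had a mean of at least 10 FPKM, and their median level was 15.5 FPKM against 9.35 FPKM for all genes tested.

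**Figure D2:**
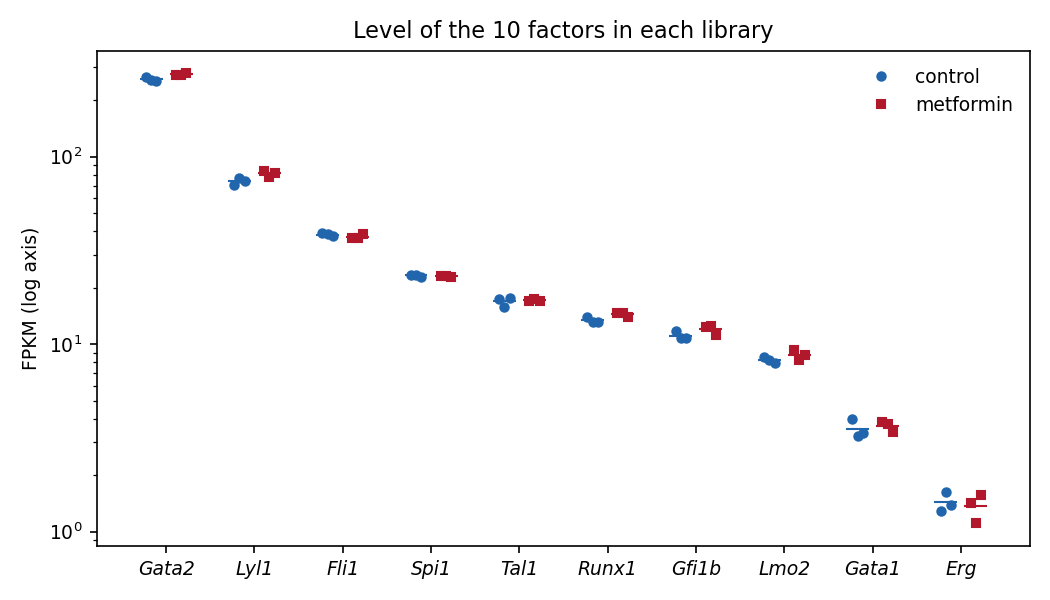
FPKM (log axis) of the 10 factors in each of the 3 control (circles) and 3 metformin (squares) libraries, with a line at each group mean. Gata2 lies at 255 to 279 FPKM, above Lyl1 at 70.4 to 84.2, and Erg is lowest at 1.11 to 1.63.

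Within gene families, GATA2 and LYL1 took most of the message. Gata2 gave 98.6% of the summed FPKM of the 6 GATA genes and exceeded Gata1 by 66.5-fold to 81.5-fold in single libraries. Of the other GATA genes, Gata3, a factor of T cells and of several epithelia, was at 0.05 to 0.36 FPKM, Gata4 at 0 to 0.02 FPKM, and both Gata5 and Gata6 at 0. Lyl1 exceeded its paralog Tal1 by 4.06-fold to 4.97-fold, and Tal2 stayed at or under 0.12 FPKM. Lmo2 was accompanied by Lmo4 at 5.61 FPKM, whereas Lmo1 and Lmo3 were listed at 0. Runx3 (27.1 FPKM) exceeded Runx1 (14.0 FPKM) in every library, and Runx2 stood at 9.70 FPKM. In the ETS group Fli1 exceeded its close relative Erg by 23.8-fold to 33.1-fold, Elf1 was near Fli1 at 33.0 FPKM, and the PU.1 relatives Spib and Spic were at 0 to 0.05 FPKM. Gfi1b (11.6 FPKM) was a little below its paralog Gfi1 (14.4 FPKM). The lowest Gfi1 library, at 13.2 FPKM, was above the highest Gfi1b library, at 12.5 FPKM.

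**Figure D3:**
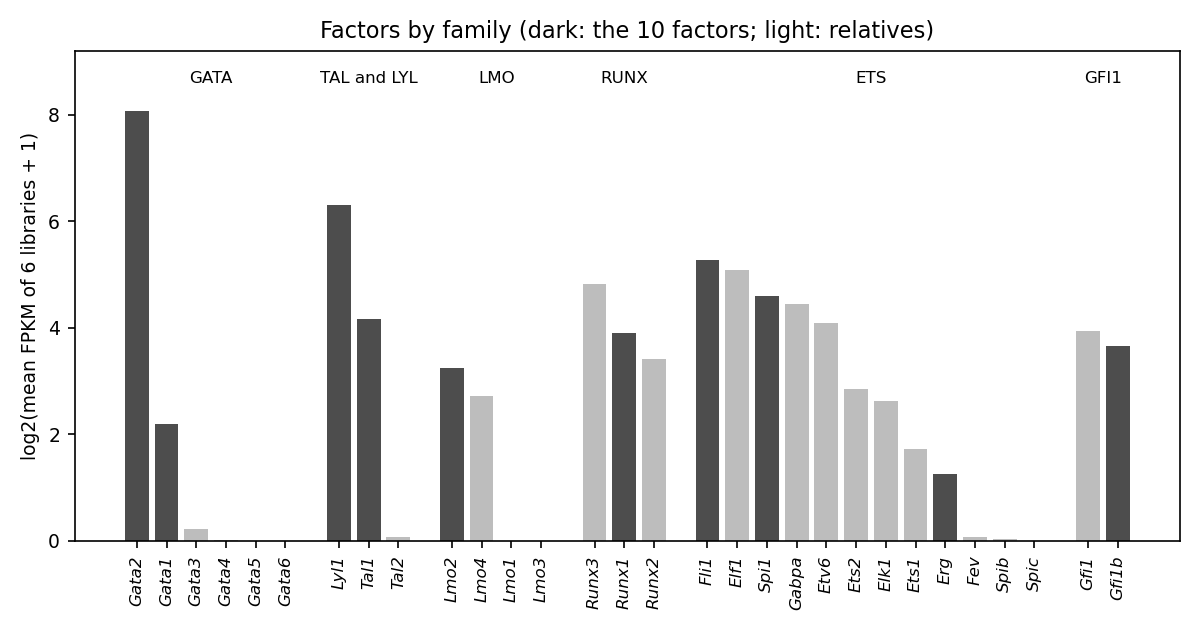
Mean level over the 6 libraries, as log2(FPKM + 1), of the 10 factors (dark bars) and the relatives listed with them (light bars), ordered by level within 6 families. Gata2 stands alone in its family, with Gata1 at 3.59 FPKM, whereas Runx1, Gfi1b, Spi1 and Erg stand below a relative.

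Between the metformin and control groups none of the 10 factors passed the threshold of an adjusted p under 0.05 (limma on log2(FPKM + 1), Benjamini-Hochberg over all 10661 genes), where the smallest adjusted p was 0.320. In the same fit 3 genes in the whole table were called higher (0.0281%) and 0 lower (0.0%). By group means 7 of the 10 factors were higher with metformin and 3 were lower, with a median log2 difference of 0.06 against 0.0041 over all genes tested, of which 52.3% were higher. Values did not overlap between the groups for 2 factors, Gata2 and Lyl1, both higher, against 8.89% of all genes tested higher and 8.1% lower. An unadjusted limma p under 0.05 was reached by 3 factors, Gata2, Lyl1 and Runx1, all higher, against 6.03% of all genes higher and 4.81% lower. With 10 factors these shares were not read as particular to them. A bulk library cannot tell fewer cells of one type from less RNA per cell.

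Gata2 occupies 88193891 to 88207032 of chromosome 6 (GRCm38, plus strand). All 3 metformin libraries (273 to 279 FPKM) were above all 3 control libraries (255 to 265 FPKM). The group means were 258 ± 5.49 FPKM in the control group and 275 ± 2.99 FPKM in the metformin group (SD, n = 3 each), a difference of 6.5% of the control mean. On the log2(FPKM + 1) scale the difference was 0.09 with a standard error of 0.02 and a 95% interval of 0.04 to 0.14, which corresponds to 1.03-fold to 1.10-fold. Its unadjusted p in limma was 0.00351 and its adjusted p 0.320. The two-sided exact permutation test gave p = 0.1, the smallest that 3 libraries against 3 allow. About 11825 to 12882 fragments per library lay behind these values, for which counting error alone is 0.899%, against a spread of 2.12% between the control and 1.09% between the metformin libraries. Ratios to other factors were taken within each library, and their outcome depended on the factor. The ratio of Gata2 to Spi1 was 10.9 to 11.3 in the control group and 11.8 to 12.2 in the metformin group, and that of Gata2 to Fli1 was 6.59 to 6.79 and 7.22 to 7.44. These did not overlap. Gata2 itself did not overlap and both Spi1 and Fli1 had lower means with metformin, so these ratios are not separate evidence. The ratio of Gata2 to Lyl1 overlapped between the groups, at 3.32 to 3.76 and 3.25 to 3.49, as did that of Gata2 to Gata1, at 66.5 to 78.9 and 71.4 to 81.5.

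Lyl1, at 84701449 to 84704940 on the plus strand of chromosome 8, was at 70.4, 77.1 and 73.9 FPKM in the control libraries and at 84.2, 78.3 and 82.2 FPKM with metformin. The lowest metformin library was just above the highest control library. The means were 73.8 ± 3.37 and 81.6 ± 2.98 FPKM (SD, n = 3 each), a difference of 10.5%, and the log2 difference was 0.14 with a standard error of 0.04 and a 95% interval of 0.05 to 0.24 (limma adjusted p = 0.350). This was the largest difference among the 10 factors with all 6 libraries. Without control replicate 1, however, Gfi1b (0.145), Runx1 (0.129) and Gata1 (0.118) exceeded Lyl1 (0.11) on the log2 scale. Gfi1b also exceeded Lyl1 without metformin replicate 3 (0.15 against 0.14). Tal1, the paralog of Lyl1, was at 17.3, 15.8 and 17.6 FPKM in the control libraries and at 16.9, 17.5 and 16.9 FPKM with metformin. The groups overlapped for Tal1. Its log2 difference was 0.02, with a 95% interval of -0.09 to 0.12 (limma adjusted p = 0.917). The ratio of Lyl1 to Tal1 overlapped between the groups as well, at 4.06 to 4.88 in the control group and 4.48 to 4.97 with metformin. The whole of Lyl1 lies within Nfix, which is transcribed from the other strand and averaged 5.54 FPKM. Whether the counting used the strand is not given in the sources used here, so reads of Nfix could count towards Lyl1.

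Lmo2, which bridges TAL1 or LYL1 to GATA factors, was at 8.54, 8.23 and 7.92 FPKM in the control libraries and at 9.34, 8.19 and 8.73 FPKM with metformin. Metformin replicate 2 fell within the control range, and the log2 difference of 0.08 had a 95% interval of -0.05 to 0.20 (limma adjusted p = 0.628). A gene antisense to Lmo2 averaged 0.44 FPKM. Gata1 was at 3.98, 3.24 and 3.34 FPKM in the control libraries and at 3.83, 3.73 and 3.42 FPKM with metformin. Control replicate 1 held the highest value of all 6, and the log2 difference of 0.05 had a 95% interval of -0.13 to 0.23 (limma adjusted p = 0.865). Leaving out single libraries moved it between 0.0024 and 0.12, and that of Lmo2 between 0.04 and 0.12. Gata1 rested on about 109 to 131 fragments per library, and a counting error of 9.09% lay near its spread of 11.4% in the control group.

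Runx1, at 92601466 to 92826149 on the minus strand of chromosome 16, was at 14.0, 13.2 and 13.1 FPKM in the control libraries and at 14.7, 14.7 and 13.95 FPKM with metformin. Metformin replicates 1 and 2 were above all control libraries, whereas metformin replicate 3 was just under control replicate 1. The log2 difference of 0.10 had a 95% interval of 0.0060 to 0.19, an unadjusted p of 0.0399 and an adjusted p of 0.439 in limma. Gfi1b showed a similar layout, at 11.8, 10.7 and 10.8 FPKM in the control libraries and 12.4, 12.5 and 11.2 FPKM with metformin. Again metformin replicates 1 and 2 lay above the control libraries and replicate 3 among them, and the log2 difference of 0.10 had a 95% interval of -0.03 to 0.23 (limma adjusted p = 0.535). A gene antisense to Runx1 had a mean of 1.62 FPKM, and no other listed gene overlapped Gfi1b.

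The 3 ETS factors were the 3 with lower means under metformin, and for each of them the groups overlapped. For Erg the direction turned without control replicate 2 (0.0149 on the log2 scale) and without metformin replicate 2 (0.0379). Fli1 was at 39.0, 38.8 and 37.5 FPKM in the control libraries and at 36.7, 36.7 and 38.6 FPKM with metformin. Metformin replicate 3 was inside the control range, and the log2 difference of -0.04 had a 95% interval of -0.11 to 0.03 (limma adjusted p = 0.667). Spi1 was at 23.5, 23.4 and 22.95 FPKM against 23.2, 23.2 and 22.9 FPKM. It had the smallest spread, 1.21% in the control and 0.727% in the metformin group. Both were below its counting error of 3.4%, so this closeness was not read as a trait of Spi1. Its log2 difference of -0.01 had a 95% interval of -0.07 to 0.05 (limma adjusted p = 0.902), which corresponds to 0.951-fold to 1.03-fold. Erg was at 1.29, 1.63 and 1.38 FPKM against 1.42, 1.11 and 1.57 FPKM, the lowest and widest of the 10. It rested on about 54 to 78 fragments per library, with a counting error of 12.2% against spreads of 12.3% and 17.2%, and the 95% interval of its log2 difference of -0.04, from -0.29 to 0.20, was the broadest.

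**Figure D4:**
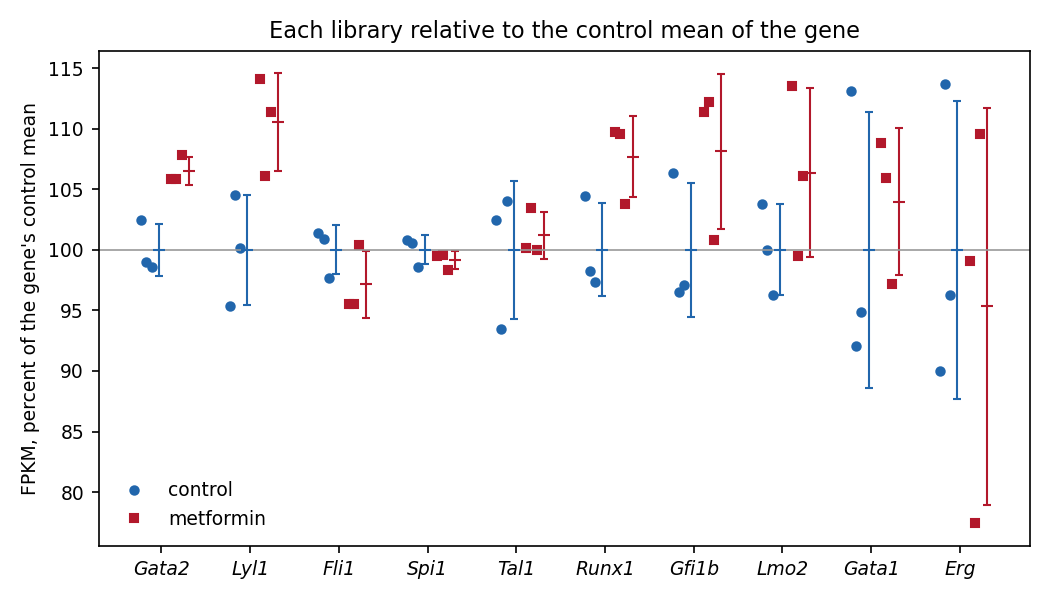
FPKM of each library as a percentage of the control mean of the same gene, for 3 control (circles) and 3 metformin (squares) libraries, with group means and SD beside the points. For Gata2 and Lyl1 the squares lie above every circle, and for the other 8 factors the groups overlap.

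**Figure D5:**
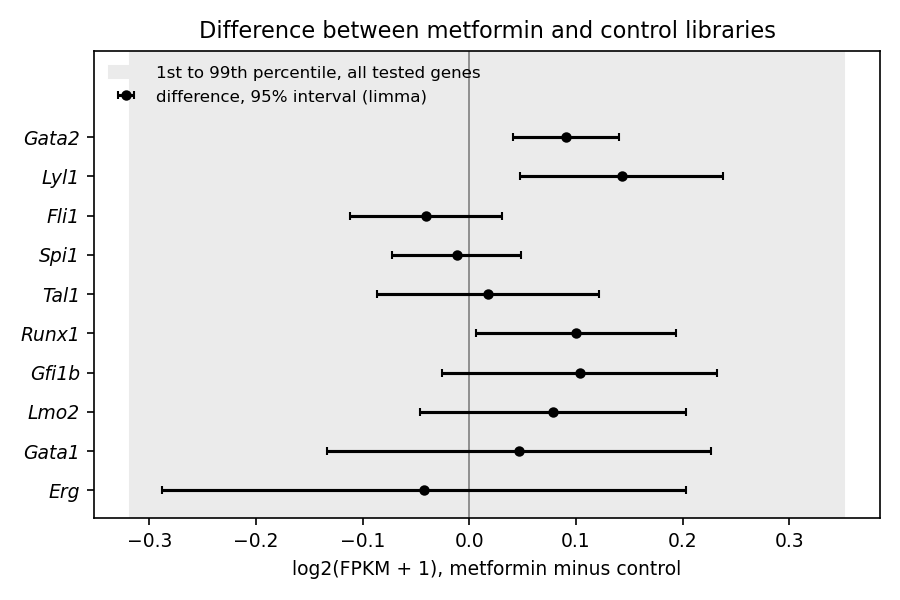
Difference between the metformin and control groups on the log2(FPKM + 1) scale for the 10 factors, with 95% intervals from limma, over a grey band from the 1st to the 99th percentile of all genes tested (-0.32 to 0.35). The intervals of Gata2, Lyl1 and Runx1 lie above 0, and all 10 points lie inside the band.

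Which libraries were compared affected the weaker patterns. Without control replicate 1 the groups did not overlap for 5 factors (Gata1, Gata2, Lyl1, Runx1 and Gfi1b, all higher). Leaving out metformin replicate 3 also gave 5 (Gata2, Lyl1, Runx1 and Gfi1b higher and Fli1 lower). For control replicate 3 the number was 4 (Gata2 and Lyl1 higher, Fli1 and Spi1 lower). Without metformin replicate 2 it was 3, with Lmo2 as the addition. With 5 libraries, 26.8% to 27.7% of all genes tested did not overlap, against 17.0% with 6. Gata2 and Lyl1 did not overlap with all 6 libraries, so leaving a library out could not make them overlap and is no check on them.

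The partners of the factors were mostly present, and none was called. Of 18 complex partners 15 were tested and 0 were called in either direction, with 11 higher and 4 lower by their means, 0 without overlap between the groups (8.89% of all genes higher and 8.1% lower), and a median log2 difference of 0.03. Ldb1, which dimerises the LMO2 complex, stood at 39.2 ± 0.537 FPKM in the control group and 39.3 ± 1.25 FPKM with metformin (SD, n = 3 each). Ssbp4, which stabilises LDB1, had a mean of 38.3 FPKM, Tcf3, the E protein partner of TAL1 and LYL1, 30.9 FPKM, Cbfb, the partner of RUNX1, 29.9 FPKM, and Hdac2 28.2 FPKM. Kdm1a, the demethylase that GFI1B recruits, stood at 28.1 FPKM and the GATA cofactor Zfpm1 at 18.8 FPKM. Another E protein gene, Tcf4, was at 0 to 0.01 FPKM. Among the 20 listed relatives 10 were tested and 0 called, with 4 higher and 6 lower by their means and a median of -0.01. The groups did not overlap for 1 higher and 1 lower of these 10, near the shares of 8.89% and 8.1% over all genes. Gfi1 was the higher one (13.8 ± 0.723 against 15.0 ± 0.480 FPKM, SD, n = 3 each, limma adjusted p = 0.424), and Gabpa, an ETS factor, the lower one (21.6 ± 0.366 against 20.2 ± 0.751 FPKM, limma adjusted p = 0.423). Elf1, Runx3 and Etv6 (16.0 FPKM) overlapped.

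Other blood transcription factors divided into those present and those near 0. Of 26 listed, 13 were tested, 9 were higher and 4 lower by their means, and 0 were called, with a median log2 difference of 0.03. Ikzf1 (60.6 FPKM), Id1 (60.4 FPKM), Stat5b (40.8 FPKM), Stat5a (34.5 FPKM) and Cebpb (25.9 FPKM) had the highest levels. Cebpb was the 1 gene of the 13 without overlap, against 8.89% of all genes higher, at 24.4 to 25.2 FPKM in the control and 26.2 to 27.9 FPKM in the metformin group (limma adjusted p = 0.367). Myb (24.9 FPKM), Nfe2 (23.3 FPKM), Hlf, a factor of blood stem cells (18.8 FPKM), and Mitf, a factor of mast cells and melanocytes (11.6 FPKM), were also present. Cebpa, needed for granulocytes, Irf8, needed for monocytes, and Ebf1 and Pax5 of B cells were at 0 to 0.03 FPKM.

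Genes known to depend on GATA2 in mast cells, progenitors and platelets were present in part. Of 25 listed, 11 were tested and 6 were listed at 0 in all libraries, and those tested were led by Cpa3 (352 FPKM), Rgs18 (151 FPKM), Csf2rb (146 FPKM), Kit (118 FPKM) and Alox5ap (70.3 FPKM). By their means 4 were higher and 7 lower with metformin, 0 were called, and the median log2 difference was -0.03. Groups did not overlap for 3 of the 11, all lower, against 8.1% of all genes tested. Cpa3, a mast cell protease, was at 356, 386 and 357 FPKM in the control libraries and at 348, 330 and 336 FPKM with metformin. Its log2 difference was -0.11, with an adjusted p of 0.369 in limma. Rgs18, a regulator of G protein signals in platelets, was at 157, 160 and 153 FPKM against 143, 147 and 144 FPKM, also with a log2 difference of -0.11 and an adjusted p of 0.301 in limma. Ltc4s, leukotriene C4 synthase, was at 1.69 to 2.40 FPKM against 1.12 to 1.62 FPKM (limma adjusted p = 0.476). These 3 genes are described because their groups did not overlap, and the other 8 tested genes, 4 of them with higher means, overlapped. Kit, the receptor for stem cell factor, overlapped between the groups, at 116 to 118 FPKM in the control group and 117 to 119 FPKM with metformin. The mast cell genes Fcer1a, Tpsb2 and Tpsab1 were listed at 0, whereas Itga2b, a platelet integrin, stood at 38.4 FPKM and Pf4 at 12.2 FPKM.

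Genes that depend on GATA1 in red cells were nearly all near 0. Of 11 listed, 8 were matched and 1 was tested, Epor, the erythropoietin receptor, at 11.6 to 13.4 FPKM in the control group and 12.6 to 13.7 FPKM with metformin (limma adjusted p = 0.598). The α-globin gene Hba-a1 was at 0 to 0.26 FPKM, and Hba-a2 and Slc4a1 were listed at 0. Of 14 myeloid genes that depend on PU.1, 3 were tested and 0 called. Adgre1, which encodes a surface receptor of macrophages, stood at 58.3 FPKM, Fcgr3 at 22.8 FPKM and Ncf4 at 21.7 FPKM, and all 3 overlapped between the groups. Csf1r, Itgam, Csf3r, Mpo and Elane were at 0 to 0.04 FPKM, with Spi1 itself at 23.2 FPKM.

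The genes whose pattern over the 6 libraries was most like that of Gata2 were Ank, Fam54b, Rab11b, Vav1 and Pfkm, among 5095 genes that averaged 10 FPKM or more. Likeness was the root mean square difference of mean-centred log2(FPKM + 1), which was 0.00489 for Ank, 0.0134 for Fam54b, 0.0144 for Rab11b, 0.0145 for Vav1 and 0.0151 for Pfkm, against a median of 0.0666. Ank, which encodes a membrane protein involved in pyrophosphate transport, was at 45.8, 44.5 and 44.5 FPKM in the control libraries and at 47.6, 47.3 and 48.3 FPKM with metformin. In both genes control replicate 1 was the highest of the control group and metformin replicate 3 the highest of the metformin group. Ank was picked for its nearness to these values of Gata2, so the shared order is not separate evidence. Of the other factors tested for likeness, Runx1 ranked 351, Spi1 1571, Gfi1b 2061, Tal1 2080, Lyl1 2515 and Fli1 2708. The measure is not scaled by spread, so a gene that varied little can rank ahead of one that moved further. Spi1, with a lower mean with metformin, ranked ahead of Lyl1, which was higher and did not overlap. These ranks therefore do not show which factor went with Gata2. The likeness is a description over 6 libraries.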

How the data were processed

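RNA-seq of 3 control and 3 metformin libraries was used. The authors deposited FPKM values of 55401 Ensembl genes for the 6 libraries, rounded to 2 decimals, and the submitters' processing notes name HISAT2, DESeq2 and mm9 without versions. The gene positions are nevertheless those of GRCm38, since 49.8% of 17669 protein-coding genes shared a start or end with RefSeq on GRCm38. Of all genes also in GENCODE M1 (NCBIM37), 1.24% shared both start and end there. That is a stricter measure on another set of genes, so the shares are not directly comparable. The labels name a stranded library kit and the study's methods another, and whether the counting used strand is not given in the sources used here. Symbols were found for 32589 genes by Ensembl identifier, and 193 of 196 listed genes were matched.

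FPKM are not counts, so log2(FPKM + 1) was fitted with limma 3.58.1 (R 4.3.3; lmFit, eBayes with a trend, two-sided) on the 10661 genes averaging 1 FPKM or more, with Benjamini-Hochberg adjustment over all of them and a threshold of 0.05. Differences on this scale understate changes of low genes. The fit was tested on simulated data. Depth was estimated from values of genes with a single exon of up to 400 bp, of which 100% lay within 0.1 of a whole fragment, and fragments per gene were approximated with GENCODE M1 exon lengths. Such counting errors cover counting only. Identical values made up 1.48% of genes for control replicate 2 with metformin replicate 3, and 1.35% for control replicate 3 with metformin replicate 2. In all other pairs of libraries they made up 0.497% to 0.769%, and the reason for the higher shares was not tested. No library was a copy of another, so each counted as 1 replicate, which does not show that they are independent. Exact permutation tests used scipy 1.17.1 and figures matplotlib 3.10.9, under Python 3.11.15.

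The 10 factors and all gene lists were chosen with earlier results of these data known. Named were the 10 factors, up to 5 genes of each list with the highest mean, any called gene, and the 5 genes most like Gata2, and any others were chosen with their values already seen. Comparing protein sequences of paralogous factors was planned and not done here. Alternatives were a pseudocount of 0.1, other filters, rescaling to TPM, quantile normalization, spreads without the trend, a replicate block and each library left out.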

Additional observations from a re-analysis of the deposited data

How the results depend on the processing

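No factor was called under the alternatives it was tested in, which were 13 for 7 factors and 12 for Gata1, Lmo2 and Erg, left out by the filter of 10 FPKM. Of 127 recomputed differences of single factors 124 kept their direction and 3 turned, for which the cause was not tested. Tal1 became -0.0275 on the log2 scale without control replicate 2 (-0.0275 to 0.0451 over the libraries left out), and Erg became 0.0149 without control replicate 2 and 0.0379 without metformin replicate 2 (-0.104 to 0.0379). The difference of Gata2 ranged from 0.08 to 0.11 (limma adjusted p from 0.224 to 0.522), that of Lyl1 from 0.11 to 0.17 (0.228 to 0.546) and that of Runx1 from 0.08 to 0.13 (0.334 to 0.633). Those of the others ranged from 0.08 to 0.15 (Gfi1b), 0.04 to 0.12 (Lmo2), 0.0024 to 0.12 (Gata1), -0.06 to -0.03 (Fli1) and -0.02 to -0.0060 (Spi1). Over all genes, 0 were called lower with limma (513 at an unadjusted p under 0.05), but 3 were when all 22809 genes above 0 FPKM were tested, and 0 to 1 when a library was left out. The number of factors without overlap was 2 to 5 when a library was left out, where fewer libraries also make overlap less frequent for all genes. At an unadjusted p under 0.05, rescaling to TPM gave 568 genes higher and 584 lower, against 643 and 513. Deviations from the group means correlated at -0.0317, 0.0181 and 0.0479 between libraries with the same replicate number. Between libraries with unlike numbers the correlations were -0.0504 to 0.03. Deviations within groups of 3 are tied to each other, so these values cannot decide whether the number marks a pairing. The sources used here name no pairing, and the number was a block only in an alternative fit. With a replicate block, 2 genes were called higher, 0 lower and 0 of the 10 factors, with adjusted p from 0.466 to 0.928. The depth limits Erg and Gata1 most.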

Other observations

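Of 72 listed genes above 0 and under the filter of 1 FPKM, 2 did not overlap between the groups and were higher with metformin (Klf1 and Gata3) and 6 were lower (Ssbp2, Spib, Tcf7, Mpo, Lyz2 and Col3a1), which is 2.78% and 8.33% against 2.25% and 2.23% of all 12148 genes in that range. Among the lower ones, Mpo was at 0 to 0.02 FPKM, Spib at 0 to 0.05, Col3a1 at 0 to 0.06 and Tcf7 at 0 to 0.33 FPKM. With values this near 0 the shares were not read as a result about the listed genes. The genes described next were picked with their values in view. Klf1, a red cell factor that works with GATA1, was at 0.05, 0 and 0.23 FPKM in the control libraries and at 0.37, 0.37 and 0.47 FPKM with metformin. Gata3 was at 0.11, 0.05 and 0.09 FPKM against 0.13, 0.36 and 0.29 FPKM. At this depth 3 fragments on 1 kb of transcript are worth 0.214 to 0.224 FPKM, so these values rest on few fragments. Ssbp2, a relative of the LDB1 partner Ssbp4, was at 1.09, 1.10 and 1.05 FPKM against 0.87, 0.97 and 0.85 FPKM, with a mean just under the filter. Lyz2, a lysozyme of myeloid cells, was at 0.85, 0.99 and 1.25 FPKM against 0.65, 0.49 and 0.33 FPKM. An unnamed gene on the opposite strand (ENSMUSG00000108010) lies 3210 bp from Gata2 and had a mean of 9.26 FPKM, between 7.17 and 10.3 FPKM in single libraries.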
